A study of Homo sapiens with 6 samples.

Results

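LY6D and 8 further genes of squamous epithelia were followed in the RNA-seq libraries of BxPC-3, an established human pancreatic cancer cell line. The other 8 were SPRR1A, SPRR1B, SPRR3, IVL, TGM1, S100A8, S100A9 and SFN. The 9 genes were chosen by name, with results of these libraries already known, and each of them has a value among the 26255 gene symbols of every library. Their levels in the 3 groups are therefore a description, and no p is given for any of them. The groups were untransfected cells (Parent), cells given a negative control RNA (NC-1) and cells given miR-4711-5p, a human microRNA supplied as a synthetic duplex, with 2 libraries in each group. RNA was analysed 36 h after transfection. All 6 libraries came from this single cell line, so they hold no tumour stroma and no second genetic background. The labels call the control NC-1 without its sequence, and the methods name more than one control RNA, so which of them it was is not settled here. The labels do not say whether the 2 libraries of a group came from separate cultures, so the errors measure only the spread between these libraries, which may be technical.

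Squamous differentiation is the program by which basal cells of skin, oesophagus and similar linings turn into a protective outer layer. The cells change their keratins, load proteins such as involucrin and the small proline-rich proteins under the plasma membrane, and transglutaminases then join these into an insoluble shell called the cornified envelope. LY6D is a small surface protein of the LY6 and uPAR domain family, held by a lipid anchor, and is best known as a mark of squamous and basal-type epithelia and of early B cells.

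Values are FPKM, the fragments assigned to a gene scaled for the length of its exons and for library size, so levels of different genes can be set side by side. The deposited files hold no read counts, and the depth in reads is unknown. Judged from the spacing of the lowest values, the 6 libraries had 0.751 to 1.21 times the depth of the first Parent library. Genes above 0 numbered 16597 to 17305, and the 10 highest genes made up 6.54% to 7.12% of a library. Marker lists were read beside the tissue label. All 7 pancreatic duct epithelial markers were present, with sums of 5210.1 to 6277 FPKM. Of 8 acinar and islet markers, 6 were at 0 in all libraries, and the highest of the rest, PRSS1, reached 5.10 FPKM. The lists hold no marker of another epithelium, so they cannot tell the pancreas from other epithelial sources. In bulk RNA, fewer cells that express a gene and less RNA per cell cannot be told apart.

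The microRNA itself is shown because its seed (bases 2 to 8, in capitals) defines the sites searched for in the 9 genes. Its mature sequence is from RefSeq, chr1:59733269-59733291 of GRCh38.p14, minus strand.
hsa-miR-4711-5p: uGCAUCAGgccagaagacaugag
The matching sites in a transcript are CTGATGCA (8mer), CTGATGC (7mer-m8) and TGATGCA (7mer-A1). Of the 9 genes, 0 had any of these in an annotated 3′ UTR, in the longest UTR or in that of any coding transcript. Among 11183 tested genes whose symbol matched the annotation, 18.4% had a site in the longest 3′ UTR and 20.6% in that of any coding transcript. The search was widened to the whole canonical mRNA, where again 0 of the 9 had a site, beside 37.5% of 11153 tested genes. The 9 mRNAs are 408 to 2744 bases long, with longest 3′ UTRs of 71 to 497 bases. The shares over all genes were not matched for length, so no depletion of sites can be read from them. The absence of a site says only that these letters do not occur in the 9 mRNAs.

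Of the 8 tested members, LY6D differed most from Parent, while IVL differed more from NC-1 by the ratio of means. The level of LY6D was 89.4 and 87.5 FPKM in Parent, 63.9 and 76.3 FPKM in NC-1, and 20.5 and 23.2 FPKM with miR-4711-5p. Both miR-4711-5p libraries were far below the lowest of the other 4, and both NC-1 libraries were below both Parent libraries. The means were 88.4 ± 1.30, 70.1 ± 8.77 and 21.8 ± 1.89 FPKM (SD, n = 2), which put LY6D with miR-4711-5p 4.05-fold below Parent and 3.21-fold below NC-1. On the log2(FPKM + 1) scale used for the model, these differences were −1.97 ± 0.09 and −1.64 ± 0.09 (SE), and that between NC-1 and Parent was −0.34 ± 0.09. Leaving out any 1 library kept the difference against Parent between −2.06 and −1.89, and that against NC-1 between −1.76 and −1.51. The gene lies at chr8:143866298-143867955 of hg19, minus strand, and has 3 exons. An unnamed gene is annotated on the opposite strand over 23.4% of its mRNA. The library kit marks strand, but whether the counting used it is not given in the sources used here, so reads of that gene could be included.

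**Figure D1:**
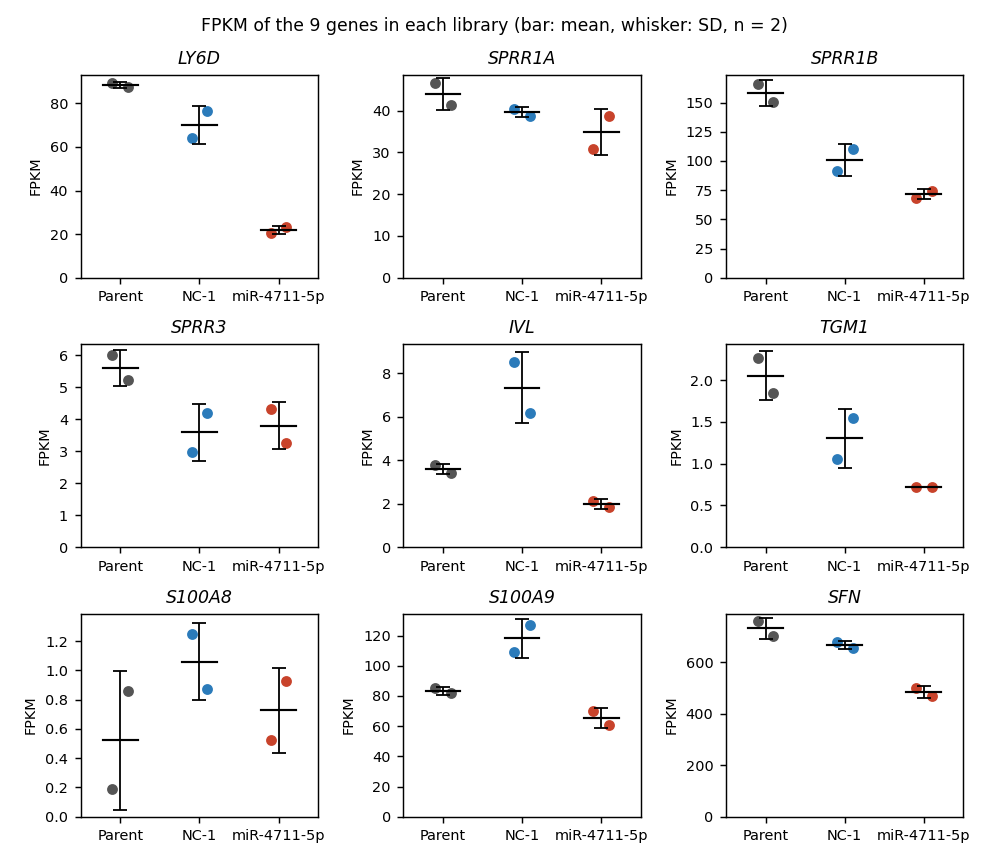
FPKM (y axis, linear, from 0) of each of the 9 genes in the 2 libraries of Parent, NC-1 and miR-4711-5p (points), with the mean (bar) and SD (whisker, n = 2). LY6D is at 20.5 and 23.2 FPKM with miR-4711-5p and at 63.9 or more in the other 4 libraries, while IVL and S100A9 are highest in NC-1 and the miR-4711-5p libraries of SPRR1A, SPRR3 and S100A8 overlap those of at least 1 other group.

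The cornified envelope precursors come next. SPRR1A, SPRR1B and SPRR3 encode small proline-rich proteins, short cross-linked chains of the envelope, and IVL encodes involucrin, the scaffold on which it is built. All 4 are 2-exon genes on the plus strand of chromosome 1, at chr1:152881022-152884362 (IVL), chr1:152956557-152958290 (SPRR1A), chr1:152974223-152976332 (SPRR3) and chr1:153003679-153005376 (SPRR1B) of hg19. The mRNAs of SPRR1A and SPRR1B were identical at 83.9% of aligned bases, but none of the 9 genes shared any 75-base stretch, the length of a read, with a transcript of another gene.

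The promoters of these 4 genes and of SFN are shown because each holds the AP-1 motif TGANTCA, which is printed in capitals. AP-1 is the dimer of FOS and JUN proteins that drives many late epidermal genes. The windows run from 250 bases before to 50 bases after the start in RefSeq on GRCh38.p14, all on the plus strand, at chr1:152983831-152984130 (SPRR1A), chr1:153030953-153031252 (SPRR1B), chr1:153001499-153001798 (SPRR3), chr1:152908296-152908595 (IVL) and chr1:26862899-26863198 (SFN).
SPRR1A: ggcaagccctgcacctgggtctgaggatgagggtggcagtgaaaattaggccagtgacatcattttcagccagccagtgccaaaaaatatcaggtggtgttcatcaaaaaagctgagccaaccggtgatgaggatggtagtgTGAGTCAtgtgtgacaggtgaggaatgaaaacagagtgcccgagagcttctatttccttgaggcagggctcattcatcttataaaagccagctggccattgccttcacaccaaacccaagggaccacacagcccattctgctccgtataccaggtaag
SPRR1B: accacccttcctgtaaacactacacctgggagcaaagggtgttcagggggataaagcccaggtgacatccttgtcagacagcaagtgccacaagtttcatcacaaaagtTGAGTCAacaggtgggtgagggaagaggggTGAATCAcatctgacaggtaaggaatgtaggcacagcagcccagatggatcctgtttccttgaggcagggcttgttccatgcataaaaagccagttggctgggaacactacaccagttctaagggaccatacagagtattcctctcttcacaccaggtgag
SPRR3: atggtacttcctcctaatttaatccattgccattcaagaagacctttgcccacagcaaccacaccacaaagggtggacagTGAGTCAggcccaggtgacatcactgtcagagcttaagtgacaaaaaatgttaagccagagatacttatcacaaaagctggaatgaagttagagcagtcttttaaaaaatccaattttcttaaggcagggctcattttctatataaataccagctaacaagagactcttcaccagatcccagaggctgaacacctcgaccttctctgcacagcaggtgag
IVL: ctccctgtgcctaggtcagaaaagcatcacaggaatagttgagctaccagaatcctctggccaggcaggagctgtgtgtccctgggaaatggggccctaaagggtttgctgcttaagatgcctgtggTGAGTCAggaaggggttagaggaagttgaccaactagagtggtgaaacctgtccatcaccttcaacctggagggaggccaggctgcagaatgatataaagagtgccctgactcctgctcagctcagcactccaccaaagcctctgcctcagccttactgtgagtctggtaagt
SFN: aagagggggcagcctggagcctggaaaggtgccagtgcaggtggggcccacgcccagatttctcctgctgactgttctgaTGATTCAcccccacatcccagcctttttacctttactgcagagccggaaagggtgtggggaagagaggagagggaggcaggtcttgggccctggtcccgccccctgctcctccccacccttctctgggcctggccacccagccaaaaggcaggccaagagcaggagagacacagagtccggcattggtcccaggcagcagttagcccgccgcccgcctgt
The motif begins 108 bases before the start in SPRR1A, 141 and 111 bases before it in SPRR1B, 170 in SPRR3, 123 in IVL and 170 in SFN. It occurred in 5 of the 7 members with a promoter in the table, the other two being S100A8 and S100A9, and in 9.37% of 27305 genes or 7.71% of 35116 promoters of the same length. TATAAA, the TATA box, was also in 5 of the 7, beside 13.99% of genes. CCNCNCCC, read by KLF and SP factors, was in 4 of the 7, beside 58.9%. The STAT motif TTCNNNGAA and the NF-κB motif were in 0 of the 7, beside 9.38% and 2.33% of genes. Both strands were searched, and no AP-1 match overlapped another motif. The SPRR promoters resemble one another, with 70.0% to 73.4% of aligned bases identical, so their matches are not independent, and a match is a run of letters rather than a known binding site.

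SPRR1B had the highest level of the 4, at 166 and 151 FPKM in Parent, 91.0 and 110.2 FPKM in NC-1, and 68.3 and 74.4 FPKM with miR-4711-5p. The 3 groups did not overlap, in the order Parent, NC-1, miR-4711-5p. Its means of 158 ± 10.8, 101 ± 13.5 and 71.4 ± 4.30 FPKM (SD, n = 2) put it with miR-4711-5p 2.22-fold below Parent and 1.41-fold below NC-1. NC-1 was itself 1.57-fold below Parent, so that the log2 difference was larger between NC-1 and Parent (−0.65 ± 0.10, SE) than between miR-4711-5p and NC-1 (−0.48 ± 0.10).

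SPRR1A, its close relative, differed little. It stood at 46.6 and 41.3 FPKM in Parent, 40.5 and 38.8 FPKM in NC-1, and 30.9 and 38.8 FPKM with miR-4711-5p. The upper miR-4711-5p library lay level with the lower NC-1 library, and only the other miR-4711-5p library was below all controls. Its log2 differences were −0.33 ± 0.11 against Parent and −0.19 ± 0.11 against NC-1 (SE), and the latter ranged from −0.35 to −0.03 when single libraries were left out.

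SPRR3 was a low gene, at 6.01 and 5.21 FPKM in Parent, 2.96 and 4.21 FPKM in NC-1, and 4.31 and 3.27 FPKM with miR-4711-5p. Both transfected groups were below Parent, and they overlapped each other. The log2 difference was −0.47 ± 0.16 for miR-4711-5p against Parent, −0.54 ± 0.16 for NC-1 against Parent, and 0.07 ± 0.16 for miR-4711-5p against NC-1 (SE). The sign of the last one rests on single libraries: it was −0.13 without the first NC-1 library and −0.09 without the first miR-4711-5p library.

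IVL went the opposite way in the control. Its level was 3.76 and 3.42 FPKM in Parent, 8.49 and 6.17 FPKM in NC-1, and 2.14 and 1.83 FPKM with miR-4711-5p. NC-1 was highest and miR-4711-5p lowest, with no overlap between any of the groups. NC-1 exceeded Parent 2.04-fold, and miR-4711-5p was 1.81-fold below Parent and 3.69-fold below NC-1, so the reference decides how large its difference appears. The log2 differences against Parent and NC-1 were −0.62 ± 0.14 and −1.47 ± 0.14 (SE).

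TGM1 encodes transglutaminase 1, the membrane-bound enzyme that cross-links the envelope proteins, and lies at chr14:24718320-24733638 of hg19, minus strand, with 15 exons. Its level was 2.26 and 1.84 FPKM in Parent, 1.06 and 1.55 FPKM in NC-1, and 0.716 FPKM in both miR-4711-5p libraries. The groups did not overlap and again ran from Parent over NC-1 to miR-4711-5p. The mean with miR-4711-5p was 2.87-fold below Parent and 1.82-fold below NC-1. At such low values the pseudocount compresses differences: the log2 difference against Parent was −0.83 ± 0.15 with 1 FPKM added and −1.39 ± 0.25 (SE) with 0.1 FPKM added. TGM1, with a mean of 1.36 FPKM over the 6 libraries, was the member just inside the minimum of 1 FPKM used for testing, although both miR-4711-5p libraries were under it, and S100A8, with 0.770 FPKM, was the one just outside.

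S100A8 and S100A9 encode the subunits of calprotectin, a calcium- and zinc-binding protein abundant in neutrophils and induced in stressed squamous epithelium. They are neighbours at chr1:153362508-153363549, minus strand, and chr1:153330330-153333499, plus strand, of hg19. In BxPC-3 the 2 subunits were far from equal. S100A8 stayed near the detection limit, at 0.187 and 0.858 FPKM in Parent, 1.25 and 0.874 FPKM in NC-1, and 0.522 and 0.931 FPKM with miR-4711-5p. The miR-4711-5p libraries overlapped both other groups, and both NC-1 libraries were above both Parent libraries, the lower of them only just. It was under the minimum for testing, so no log2 difference is given.

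S100A9 was at 85.4 and 81.7 FPKM in Parent, 109 and 127 FPKM in NC-1, and 70.2 and 60.7 FPKM with miR-4711-5p. As for IVL, NC-1 was highest, miR-4711-5p lowest, and no groups overlapped. NC-1 exceeded Parent 1.41-fold, and miR-4711-5p was 1.28-fold below Parent and 1.81-fold below NC-1, with log2 differences of 0.49, −0.35 and −0.84 (each ± 0.09, SE). Myeloid cells also make both subunits, and of 12 myeloid markers 7 (TYROBP, CSF3R, FCGR3B, MPO, ELANE, SPI1 and LCP2) were at 0 in all 6 libraries and 11 were under 1 FPKM throughout. The summed level of the list was 1.60 to 2.08 FPKM in Parent, 2.27 to 2.65 FPKM in NC-1 and 1.43 to 2.82 FPKM with miR-4711-5p. In every library this sum was far below S100A9 and above S100A8. CD14, at 0.897 to 2.18 FPKM, was the only marker of the list that reached 1 FPKM.

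SFN encodes stratifin, or 14-3-3 sigma, the epithelial member of the 14-3-3 family, a p53-induced brake on the cell cycle that is abundant in keratinocytes. It is a 1-exon gene at chr1:27189640-27190947 of hg19, plus strand, apart from the other members on that chromosome. It was the most abundant member, at 761 and 703 FPKM in Parent, 677 and 654 FPKM in NC-1, and 501 and 468 FPKM with miR-4711-5p. No groups overlapped. The decrease was modest but tight, 1.51-fold against Parent and 1.37-fold against NC-1, with log2 differences of −0.59 ± 0.05 and −0.46 ± 0.05 (SE).

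**Figure D2:**
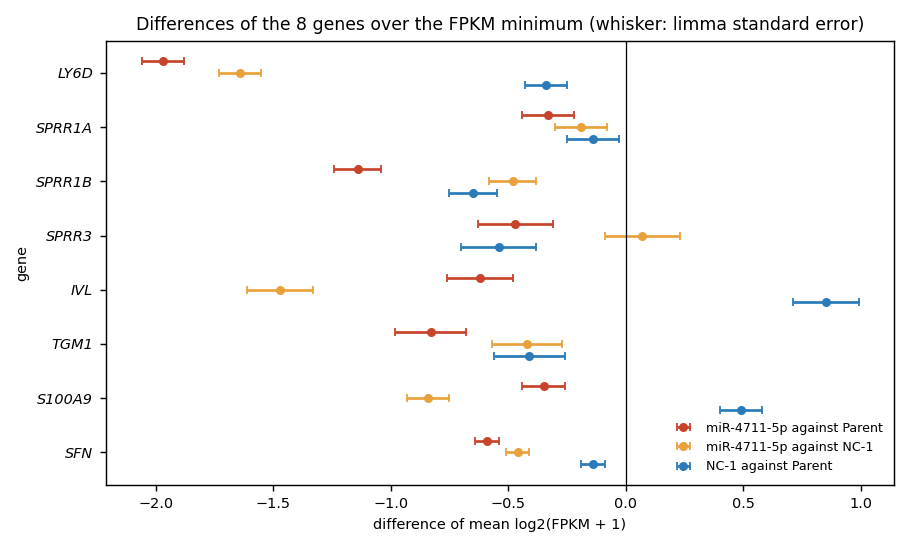
Difference of mean log2(FPKM + 1) (x axis) for the 8 members over the FPKM minimum, with limma standard errors (whiskers), for each of the 3 comparisons of groups (colours). All 8 are below 0 against Parent, LY6D farthest at −1.97, and IVL (0.85) and S100A9 (0.49) alone lie above 0 between NC-1 and Parent.

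The order of the members changed with it. In Parent it ran SFN, SPRR1B, LY6D, S100A9, SPRR1A, SPRR3, IVL, TGM1 and S100A8, and no neighbours overlapped, although LY6D exceeded S100A9 by only 1.06-fold. In NC-1, S100A9 moved above SPRR1B, whose libraries it overlapped, and IVL moved above SPRR3, while TGM1 and S100A8 overlapped. With miR-4711-5p, LY6D stood behind S100A9 and SPRR1A to the fifth place, with 21.8 ± 1.89 against 34.8 ± 5.58 FPKM (SD, n = 2) for SPRR1A and no overlap between them.

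Neither miR-4711-5p library reached the lowest of the other 4 for LY6D, SPRR1B, IVL, TGM1, S100A9 and SFN, which is 6 of the 9 members, and for 0 members were both above all 4. Among the 12040 tested genes, 26.3% were below and 23.8% above in the same sense. By limma with Benjamini-Hochberg adjustment at 0.05, all 8 tested members were lower in the miR-4711-5p group than in Parent, where 24.7% of tested genes were lower and 18.7% higher. That count depends on the settings: with a replicate block 6 of the 8 passed, and with only the 4 libraries of the comparison 7 did. It depends on the FPKM minimum too: TGM1 passed the minimum only through its Parent and NC-1 values. S100A8, with a higher mean with miR-4711-5p (0.726 FPKM) than in Parent (0.522 FPKM), was not tested. Against NC-1, 5 of the 8 were lower, beside 21.2% of genes lower and 18.4% higher. SPRR1A, SPRR3 and TGM1 did not pass there, although TGM1 did with a pseudocount of 0.1 FPKM, where its log2 difference was −0.76 ± 0.25 (SE) in place of −0.42 ± 0.15. Between NC-1 and Parent, IVL and S100A9 were called higher and LY6D, SPRR1B and SPRR3 lower, beside 12.1% of genes higher and 15.1% lower. The calls of LY6D and SPRR3 in that comparison were lost when the libraries were scaled to an equal sum of FPKM. That of SPRR3 was also lost with a replicate block. The members were picked with these contrasts in view, so nothing is read from their counts, and the comparisons share libraries, so they are not separate evidence.

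Leaving out single libraries moved the log2 differences of the members. Because of how the members were picked, a difference that keeps its sign is no support. Against Parent, LY6D ranged from −2.06 to −1.89, SPRR1B from −1.21 to −1.07, TGM1 from −0.93 to −0.73 and SFN from −0.65 to −0.54. IVL ranged from −0.70 to −0.55, SPRR3 from −0.63 to −0.31, S100A9 from −0.45 to −0.25 and SPRR1A from −0.49 to −0.17. Against NC-1, IVL ranged from −1.67 to −1.27, S100A9 from −0.95 to −0.73 and SFN from −0.51 to −0.41, while SPRR3 turned sign. Between NC-1 and Parent, IVL ranged from 0.64 to 1.05 and SPRR1B from −0.79 to −0.52. Scaled to an equal sum of FPKM, 5 of the 8 passed against Parent. An equal sum of FPKM moved the median of all tested genes against Parent from −0.01 to 0.11 and turned the split of calls from 2255 higher and 2975 lower to 4010 higher and 1776 lower. On that scale LY6D was at −1.84, SFN at −0.45 and S100A9 at −0.21 against Parent, all still below 0. Between NC-1 and Parent the same scaling turned 1456 higher and 1823 lower into 2327 and 1000, and between miR-4711-5p and NC-1 it turned 2214 and 2549 into 2923 and 2083.

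The wider squamous program was read from 8 lists of related genes, none of which holds a member. They name 171 genes, of which 170 are in the files and 100 were tested. Against Parent, 57 of the 100 fell and 13 rose with miR-4711-5p by the same limma threshold, beside 24.7% of all tested genes lower and 18.7% higher. Against NC-1, 56 fell and 14 rose, beside 21.2% and 18.4% of all tested genes. The same shares stand beside the counts of each list below. The median log2 difference over the 100 was −0.34 against Parent and −0.33 against NC-1, beside −0.01 and 0.00 over all tested genes. NC-1 against Parent gave 25 lower and 19 higher, beside 15.1% and 12.1% of all tested genes, with a median of −0.03. The lists were written with earlier results of these data known, so their counts are a description.

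**Figure D3:**
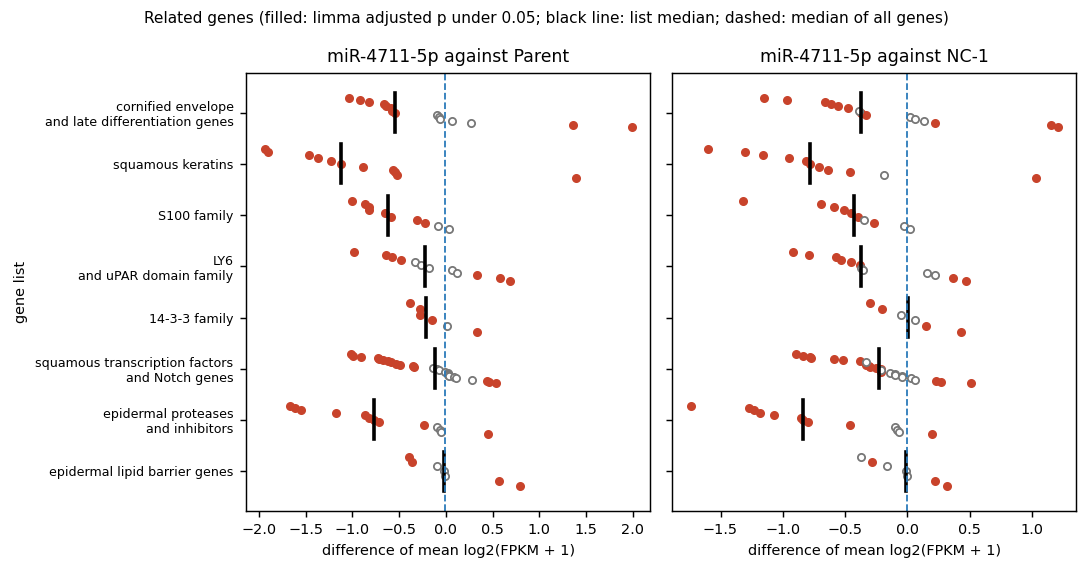
Difference of mean log2(FPKM + 1) (x axis) of each tested gene in the 8 related lists (rows), for miR-4711-5p against Parent (left) and NC-1 (right). Filled points passed limma at an adjusted p of 0.05, black lines are list medians and the dashed line is the median of all genes. The keratins have the lowest median against Parent (−1.12) and the lipid barrier genes lie around 0 (−0.02).

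Keratins, the filament proteins whose choice marks each epithelial layer, held the lowest list median against Parent (−1.12). Against NC-1 theirs was −0.78, above the −0.84 of the proteases and inhibitors. Of 11 tested, 10 fell and 1 rose against Parent, and 9 fell and 1 rose against NC-1. KRT4, a keratin of non-cornifying squamous linings, was at 43.0 and 40.2 FPKM in Parent, 32.3 and 33.0 FPKM in NC-1, and 8.79 and 11.6 FPKM with miR-4711-5p, a 4.09-fold decrease against Parent (limma adjusted p = 2.1e-05) and a 3.21-fold decrease against NC-1 (adjusted p = 5.56e-05). KRT13, its partner in the same linings, fell from 1370 ± 49.2 FPKM in Parent and 907 ± 24.4 FPKM in NC-1 to 368 ± 40.6 FPKM (SD, n = 2; limma adjusted p = 5.27e-06 and 2.53e-05). An antisense gene is annotated over 21.6% of the KRT13 mRNA. KRT6A, a keratin of wounded and fast-dividing epithelium, fell 2.78-fold against Parent (limma adjusted p = 3.3e-06) and 1.75-fold against NC-1 (adjusted p = 2.22e-05), with the limit that 26.2% of its 75-base windows also occur in KRT6B, KRT6C or KRT5. The keratin that rose was KRT80, found at cell junctions of many epithelia: 11.9 ± 0.156 FPKM in Parent and 15.5 ± 0.331 FPKM in NC-1 became 32.7 ± 0.0981 FPKM (SD, n = 2; limma adjusted p = 4.25e-06 against Parent and 1.29e-05 against NC-1).

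Among 15 tested cornified envelope and late differentiation genes, 8 fell and 2 rose against Parent, and 8 fell and 3 rose against NC-1. Both that rose against Parent belong to the SPRR2 group, relatives of the SPRR members. SPRR2D was at 0.626 and 1.43 FPKM in Parent, 2.50 and 2.34 FPKM in NC-1, and 6.28 and 7.57 FPKM with miR-4711-5p (6.73-fold higher than in Parent, limma adjusted p = 0.000214, and 2.86-fold higher than in NC-1, adjusted p = 0.00229). SPRR2A was at 2.40 and 2.32 FPKM in Parent, 2.02 and 3.99 FPKM in NC-1, and 7.06 and 8.18 FPKM (limma adjusted p = 0.00213 and 0.00485). So within one family SPRR1B was lower in the libraries where SPRR2D and SPRR2A were higher. Reads of the SPRR2 genes can be shared, since 16.3% of the 75-base windows of SPRR2D and 25.2% of those of SPRR2A occur in other SPRR2 genes. PPL, which encodes periplakin and links keratin to the forming envelope, fell from 125 ± 6.81 FPKM in Parent and 119 ± 4.68 FPKM in NC-1 to 60.1 ± 0.00799 FPKM (SD, n = 2; limma adjusted p = 1.44e-05 and 2.23e-05). CLCA2, a p63- and p53-linked membrane protein of stratified epithelium, fell 2.22-fold against Parent and 2.66-fold against NC-1 (limma adjusted p = 0.000788 and 0.000333). Of the 46 genes of this list, 13 were at 0 in all libraries, among them LOR, which encodes loricrin, the main protein of the finished envelope of skin.

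In the S100 family, small calcium-binding proteins to which S100A8 and S100A9 belong, 8 of 10 tested genes fell and 0 rose against Parent, and 7 fell and 0 rose against NC-1. S100P, common in pancreatic cancer, was at 227 and 218 FPKM in Parent, 281 and 274 FPKM in NC-1, and 109 and 112 FPKM with miR-4711-5p, and like S100A9 it was highest in NC-1. It fell 2.01-fold against Parent (limma adjusted p = 6.75e-06) and 2.51-fold against NC-1 (adjusted p = 3.97e-06). S100A16, S100A14 and S100A2 fell by 1.83-, 1.77- and 1.76-fold against Parent (limma adjusted p = 2.87e-05, 1.24e-05 and 3.4e-05) and by 1.62-, 1.32- and 1.42-fold against NC-1 (9.55e-05, 0.000366 and 0.000362).

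The relatives of LY6D itself did not share a direction. Of 12 tested genes of the LY6 and uPAR domain family, 4 fell and 3 rose against Parent, beside 24.7% and 18.7% of all tested genes. Against NC-1, 6 fell and 2 rose, beside 21.2% and 18.4%. LYNX1, a modulator of nicotinic receptors, fell 2.26-fold against Parent and 1.62-fold against NC-1 (limma adjusted p = 0.00016 and 0.0021). CD59, the inhibitor of the complement pore, fell 1.40-fold and 1.45-fold (limma adjusted p = 0.000626 and 0.000446). PLAUR, the urokinase receptor, rose from 61.4 ± 4.35 FPKM in Parent and 72.1 ± 5.00 FPKM in NC-1 to 99.8 ± 2.11 FPKM (SD, n = 2; limma adjusted p = 0.000248 and 0.0017). LYPD3, a keratinocyte adhesion protein also called C4.4A, depended on the reference: 34.7 and 31.1 FPKM in Parent, 63.1 and 67.3 FPKM in NC-1 and 49.8 and 49.6 FPKM with miR-4711-5p put it 1.51-fold above Parent and 1.31-fold below NC-1 (limma adjusted p = 0.000421 and 0.00301). Other annotated genes on the same strand cover 7.41% of the LYNX1 mRNA and 8.26% of the CD59 mRNA, where reads can be shared.

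The RNAs of the other 14-3-3 proteins, adaptors that bind phosphorylated partners, moved less against Parent than that of SFN. Against NC-1, YWHAG moved about as far in the other direction (log2 difference 0.43 ± 0.04, beside −0.46 ± 0.05 for SFN, SE). Of 6 tested, 4 fell and 1 rose against Parent, and 2 fell and 2 rose against NC-1. YWHAG rose 1.26-fold against Parent and 1.35-fold against NC-1 (limma adjusted p = 0.000645 and 0.000218). YWHAE and YWHAH fell 1.30-fold and 1.22-fold against Parent (limma adjusted p = 0.0005 and 0.00169), but neither passed against NC-1 (limma adjusted p = 0.366 and 0.276). YWHAQ fell 1.22-fold against Parent (limma adjusted p = 0.00328), a call lost when the libraries were scaled to an equal sum of FPKM.

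Of 26 tested transcription factors and Notch genes, 12 fell and 3 rose against Parent, and 14 fell and 3 rose against NC-1. The 3 that rose against Parent were KLF4, ZNF750 and NOTCH2, named after their values were seen. Mean KLF4 was 9.96 FPKM in Parent, 12.5 FPKM in NC-1 and 14.9 FPKM with miR-4711-5p. It passed against both references (limma adjusted p = 0.000854 and 0.0311). ZNF750 and NOTCH2 rose 1.55-fold and 1.39-fold against Parent (limma adjusted p = 0.00865 and 0.000531). Neither passed against NC-1 (limma adjusted p = 0.769 and 0.160). SOX15, a factor of squamous epithelium, was at 67.0 and 63.7 FPKM in Parent, 54.4 and 54.9 FPKM in NC-1, and 31.4 and 32.0 FPKM with miR-4711-5p (limma adjusted p = 9.3e-06 and 3.29e-05). TP63, the master factor of stratified epithelia, fell 1.68-fold against Parent and 1.52-fold against NC-1 (limma adjusted p = 0.000241 and 0.000731). KLF5, a factor of proliferating epithelial cells, fell 1.89-fold and 1.86-fold (limma adjusted p = 8.46e-05 and 0.000116), and PITX1, a homeobox factor, 2.02-fold and 1.31-fold (2.84e-05 and 0.00255). FOSL1 and JUNB, AP-1 subunits of the same list, are named after their values were seen. FOSL1 was at 126 ± 5.05 FPKM in Parent, 131 ± 6.14 FPKM in NC-1 and 134 ± 2.32 FPKM with miR-4711-5p (SD, n = 2), and JUNB at 123 and 105 FPKM, 97.3 and 93.2 FPKM, and 117 and 113 FPKM in the same order. Neither FOSL1 nor JUNB passed against Parent (limma adjusted p = 0.203 and 0.824), and JUNB was 1.21-fold higher than in NC-1 (limma adjusted p = 0.025). The list holds no other FOS or JUN gene, and a role of AP-1 was not tested.

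Among epidermal proteases and their inhibitors, which control the shedding of the outer layer, 9 of 13 tested fell and 1 rose against Parent, with the same counts against NC-1. KLK10 and KLK11, kallikrein proteases, fell 3.57-fold and 3.37-fold against Parent (limma adjusted p = 6.02e-05 and 3.95e-06) and 2.48-fold and 2.63-fold against NC-1 (limma adjusted p = 0.000349 and 9.73e-06). SERPINB3, the squamous cell carcinoma antigen, was at 43.4 and 46.2 FPKM in Parent, 48.4 and 53.8 FPKM in NC-1, and 14.6 ± 0.872 FPKM (SD, n = 2) with miR-4711-5p (limma adjusted p = 9.3e-06 and 8.06e-06). Its windows were shared with SERPINB4 at 10.9%, and SERPINB11 is annotated on the opposite strand over 36.3% of its mRNA, as an unnamed gene is over 8.04% of that of KLK10. SLPI, a secreted elastase inhibitor, fell 1.83-fold and 1.81-fold (limma adjusted p = 2.41e-05 and 3.1e-05).

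Of 7 tested genes of the epidermal lipid barrier, 2 fell and 2 rose against Parent, beside 24.7% and 18.7% of all tested genes. Against NC-1, 1 fell and 2 rose, beside 21.2% and 18.4%. ABCA12, the lipid transporter of the lamellar granules, was at 2.86 and 2.82 FPKM in Parent, 4.77 and 4.56 FPKM in NC-1, and 5.68 and 5.55 FPKM with miR-4711-5p. It rose against Parent (limma adjusted p = 0.000186), while the call against NC-1 (adjusted p = 0.0416) was lost without any one of the 6 libraries. UGCG, which makes glucosylceramide, rose from 22.1 ± 1.89 FPKM in Parent to 33.3 ± 1.85 FPKM (SD, n = 2; limma adjusted p = 0.000842), and SLC27A4, a fatty acid transporter, fell 1.29-fold (limma adjusted p = 0.00249).

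Of the 9 members, 6 lie between S100A10 and S100A1 on chromosome 1, at chr1:151955391-153604515 of hg19, a stretch of 1649 kb called the epidermal differentiation complex. This stretch was added after values were seen. It holds 63 protein-coding genes, of which 61 are in the files, 22 were at 0 in all libraries and 17 were tested. Besides 5 tested members these were 12 other genes, of which 8 were lower and 2 higher than in Parent and 6 lower and 2 higher than in NC-1, with medians of −0.45 and −0.37. All 12 belong to the S100 or cornified envelope lists above, so their calls are already counted there. Over all tested genes, 24.7% were lower and 18.7% higher than in Parent, and 21.2% lower and 18.4% higher than in NC-1. Neighbours differed: in the order along the chromosome SPRR1B (−1.14 against Parent) is followed, among tested genes, by SPRR2D (1.99) and SPRR2A (1.36), and these by S100A9 (−0.35).

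**Figure D4:**
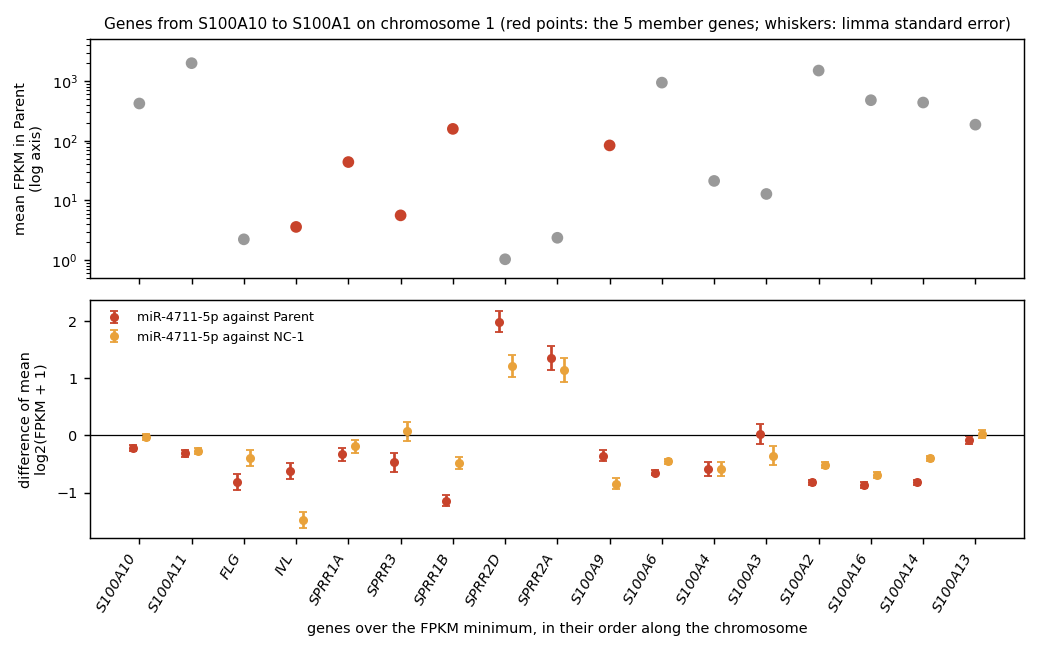
The 17 tested genes from S100A10 to S100A1 in their order along chromosome 1 (x axis, not to scale), with the mean FPKM in Parent (upper panel, log axis) and the difference of mean log2(FPKM + 1) against Parent and NC-1 (lower panel, whiskers are limma standard errors). The 5 members are red in the upper panel, and SPRR2D and SPRR2A stand above 0 between SPRR1B and S100A9.

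The genes whose pattern over the 6 libraries was most like that of LY6D were found by the root mean square difference of log2(FPKM + 1) profiles, each centred on its Parent mean, among the 8873 other genes that averaged 5 FPKM or more. KRT4 was the nearest (0.0882), followed by PSMB6 (0.166), KRT13 (0.167), CDH1 (0.171) and CA12 (0.194). PSMB6 encodes a proteasome subunit, CDH1 the adhesion protein E-cadherin and CA12 a carbonic anhydrase of the cell surface. PSMB6 was at 183 and 171 FPKM in Parent, 154 and 165 FPKM in NC-1, and 36.8 and 40.2 FPKM with miR-4711-5p. CDH1 was at 114 and 117 FPKM in Parent, 109 and 110 FPKM in NC-1, and 28.3 and 30.9 FPKM with miR-4711-5p. It is 1 of the 7 duct epithelial markers, which did not move together. EPCAM was at 101 ± 3.02 FPKM in Parent and 109 ± 1.63 FPKM with miR-4711-5p, and KRT18 rose from 1093 ± 32.5 to 1251 ± 0.198 FPKM (SD, n = 2). KRT19 fell from 1629 ± 99.5 to 901 ± 15.2 FPKM between these groups, and MUC1 from 30.4 ± 0.235 to 15.1 ± 0.698 FPKM. KRT7 and KRT8 fell less, from means of 1694 and 1427 FPKM to 1590 and 1341 FPKM. KRT8 was lowest in NC-1, at 1128 ± 48.8 FPKM. CA12 was at 9.67 and 10.2 FPKM in Parent, 7.41 and 7.14 FPKM in NC-1, and 2.42 and 2.29 FPKM with miR-4711-5p. The likeness is over 6 libraries of 3 groups and carries no p.

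The other members were farther from LY6D. SPRR1B was at rank 68 with 0.517, SFN at rank 449 with 0.814, SPRR1A at rank 1351 with 0.960 and S100A9 at rank 2757 with 1.06. IVL, SPRR3, TGM1 and S100A8 were under the 5 FPKM minimum and have no rank.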

How the data were processed

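RNA-seq was performed on 6 libraries of BxPC-3 cells (2 each of Parent, NC-1 and miR-4711-5p). Per the methods, TruSeq stranded mRNA libraries were sequenced on an Illumina HiSeq instrument in 75-base single-end mode and mapped to hg19. The authors deposited FPKM per gene symbol, calculated with Cuffnorm and normalized for exon length and library size. Per the submitters' processing notes, TopHat2 2.1.1, Bowtie2 2.3.5.1, SAMtools 1.2 and Cufflinks 2.2.1 were used, while the methods name other versions of the first 3. The annotation, strand option and normalization option of Cuffnorm are not given in the sources used here.

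The 12040 of 26255 genes that averaged 1 FPKM or more were tested on log2(FPKM + 1) with limma 3.58.1 (R 4.3.3; lmFit, contrasts.fit, eBayes with trend). All 3 groups entered the same fit (3 residual and 4.15 prior degrees of freedom), and tests were two-sided with Benjamini-Hochberg adjustment over all tested genes at 0.05. Fold values are ratios of mean FPKM without a pseudocount, and log2 differences understate the change of low genes. Because FPKM are not read counts, no count model was fitted. The fit was first tested on simulated data. Relative depth came from the commonest ratio of values under 0.1 FPKM.

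The members and the 8 lists were chosen with earlier results of these data known. Named genes are all members, from each list up to 4 genes called against Parent with the largest log2 difference and at least 5 FPKM in the higher group, the 5 genes most like LY6D, and genes of the marker lists. LOR, the AP-1 subunits, KLF4, ZNF750 and NOTCH2 were named in addition, and they are not among the named genes recomputed under alternatives. Positions and UTRs are from GENCODE v44 lifted to GRCh37, the same build as hg19. Of the tested genes, 10593 matched it by symbol, 590 by a synonym and 857 not at all. The microRNA and the promoters are from RefSeq (GRCh38.p14), where 7 of the 9 members had a promoter. Python 3.11.15, pandas 2.3.3 and Biopython 1.88 were used. Alternatives were another pseudocount, other FPKM minimums, other scalings, a replicate block, the 4 libraries of a comparison alone, a 1.5-fold requirement and leaving out each library.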

Additional observations from a re-analysis of the deposited data

How the results depend on the processing

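For the members, 251 of 264 log2 differences recomputed under an alternative stayed within the spread between replicates, 11 moved beyond it and 2 turned sign, both for SPRR3 against NC-1, where 0.07 ranged from −0.13 (without NC-1 replicate 1) and −0.09 (without miR-4711-5p replicate 1) to 0.26 as single libraries were left out. Of 1419 recomputed values of the other named genes, 1355 kept their direction and side of the threshold, 57 were no longer past it and 7 newly passed it.

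Against Parent, NC-1 and for NC-1 against Parent, 5230, 4763 and 3279 genes were called. An additional 1.5-fold requirement left 1486, 1293 and 499, and of the related genes 37 against NC-1 (70 without it) and 9 for NC-1 against Parent (44 without it). With no filter on low values, 2165 genes were called between NC-1 and Parent, and the cause was not tested. Leaving out 1 library gave 3164 to 5135 genes against Parent, 2815 to 4639 against NC-1 and 1355 to 2296 for NC-1 against Parent, and 61 to 71, 48 to 71 and 25 to 38 related genes, the lowest each time without miR-4711-5p replicate 1 or, for NC-1 against Parent, Parent replicate 1. The median-of-ratios factors over genes above 0 in all libraries came out nearly equal (1.006 to 1.007), so 2 scalings were added after seeing the data. Scaled over the tested genes, 2449 genes were higher and 2772 lower than in Parent.

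The deviations of same-numbered libraries correlated at 0.061, 0.00301 and −0.00892, so they showed no shared deviation. This cannot exclude that same-numbered libraries were prepared together, which the labels do not say. With a replicate block, 4983, 4564 and 2864 genes were called. Where a library is left out, its group has 1 library, which is assumed to vary like the others. Depth in reads is unknown, which limits the members near 1 FPKM, S100A8 and TGM1.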
